A study of Mus musculus with 3 samples.

Results

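The 9 genes described here are the ligands *Vegfa*, *Vegfb*, *Vegfc* and *Pgf* and their receptors and coreceptors *Kdr*, *Flt1*, *Flt4*, *Nrp1* and *Nrp2*, which were found by symbol among the 33696 genes of the count table. They were read across the cell classes of the mouse retina at postnatal day 6, in 3 single-cell libraries of different genotype. One library came from wild-type (WT) mice. Another came from mice with a constitutive knockout of *Tspan12* (*Tspan12* KO), the coreceptor through which Norrin signals to beta-catenin. The remaining library came from *Ctnnb1* flox/flox mice with *Pdgfb*-iCreER, given tamoxifen in the first days of life, in which Cre acts in endothelial cells (ECs) and removes beta-catenin from them (*Ctnnb1* cKO). The strain was C57BL/6 throughout, each library was a pool of mice of 1 genotype, and WT came from other litters than the mutants. Cells had been enriched with beads against CD31 and CD11b, so the libraries hold ECs and microglia beside neurons and glia that came through the enrichment.

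Vascular endothelial growth factors drive the growth of retinal vessels. VEGF-A, released by astrocytes ahead of the advancing plexus and later by deeper neurons and glia in answer to low oxygen, acts on VEGFR2 (*Kdr*), the main signalling receptor of ECs. VEGFR1 (*Flt1*) binds VEGF-A tightly but signals weakly, and a soluble form of it serves as a decoy. VEGF-B and placental growth factor (*Pgf*) bind VEGFR1, whereas VEGF-C (*Vegfc*) acts on VEGFR3 (*Flt4*), a receptor of lymphatic and sprouting ECs. The neuropilins *Nrp1* and *Nrp2* are coreceptors that bind VEGF and class 3 semaphorins. The libraries count the 3' ends of transcripts, and the deposited counts are summed per gene. Neither the soluble form of *Flt1* nor the splice forms of *Vegfa* can therefore be told apart in them.

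Because beta-catenin activates genes together with TCF/LEF factors, the promoters of the 9 genes were searched for the TCF/LEF core CTTTGA on both strands (its reverse is TCAAAG). The windows run from 250 bases before to 50 bases after the start in RefSeq (build GRCm38.p6), and all 9 genes had at least 1, giving 11 windows in all. A match was present in 1 of the 11, that of *Nrp2*, against 16.0% of the 32851 promoter windows of the same length. The windows of *Nrp2* (chr1:62703067-62703366, plus strand) and of *Kdr* (chr5:75978406-75978705, minus strand) and *Flt1* (chr5:147725962-147726261, minus strand), the receptors with the most EC counts, are shown with the match in capitals.
Nrp2: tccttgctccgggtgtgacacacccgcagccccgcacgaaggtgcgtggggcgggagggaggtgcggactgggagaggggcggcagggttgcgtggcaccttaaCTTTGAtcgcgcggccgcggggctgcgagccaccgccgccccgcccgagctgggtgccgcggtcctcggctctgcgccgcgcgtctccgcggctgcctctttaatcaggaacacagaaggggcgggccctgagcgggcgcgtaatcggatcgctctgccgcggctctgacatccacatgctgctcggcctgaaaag
Kdr: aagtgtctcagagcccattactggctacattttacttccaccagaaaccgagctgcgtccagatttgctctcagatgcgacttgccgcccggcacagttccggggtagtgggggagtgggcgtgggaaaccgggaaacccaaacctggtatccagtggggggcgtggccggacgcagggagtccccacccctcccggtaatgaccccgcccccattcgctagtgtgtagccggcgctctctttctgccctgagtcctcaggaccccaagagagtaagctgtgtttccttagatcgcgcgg
Flt1: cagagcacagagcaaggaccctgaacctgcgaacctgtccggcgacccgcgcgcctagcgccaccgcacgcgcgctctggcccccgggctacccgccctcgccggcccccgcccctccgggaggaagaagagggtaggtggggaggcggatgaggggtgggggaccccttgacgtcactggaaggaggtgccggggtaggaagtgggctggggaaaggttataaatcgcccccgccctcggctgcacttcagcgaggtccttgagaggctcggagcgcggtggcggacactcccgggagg
No letters are in capitals for *Kdr* and *Flt1*, as the core is not in these windows. A match describes letters only and is not evidence of binding.

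The WT library held 9951 barcodes, the *Tspan12* KO library 14426 and the *Ctnnb1* cKO library 9151, with 92684519, 137114957 and 37008362 counted transcripts (UMIs, unique molecular identifiers). Of these, 8989, 12732 and 8451 cells were kept, and the libraries shared 21 to 37 barcodes pairwise. The 8 main classes are those with at least 50 cells in every library: Müller glia, retinal progenitors, neurogenic precursors, bipolar cells, amacrine cells, rods, microglia and ECs. Some joined clusters that separated by library. In *Ctnnb1* cKO 1452 of 1563 rods lay in a cluster with 27 WT and 69 *Tspan12* KO cells. Of its 1919 microglia, 1835 lay in a cluster with 24 WT and 23 *Tspan12* KO cells. Of its 2710 ECs, 1828 lay in a cluster with 24 WT and 73 *Tspan12* KO cells. Another 561 lay in a cluster with 1 WT and 6 *Tspan12* KO cells, while 514 of 539 WT ECs were in a different one. The *Ctnnb1* cKO log2 ratios in rods, microglia and ECs thus compare largely different clusters. None of the 8 EC markers (*Cldn5* and *Pecam1* among them) was at 0 in the ECs of any library. ECs numbered 539, 290 and 2710 in the order WT, *Tspan12* KO and *Ctnnb1* cKO, which is kept throughout, with medians of 15850, 14800 and 3360 UMIs per cell. Levels are given in CPM, the UMIs of a gene scaled to a constant total per class and library, and a log2 ratio sets a mutant library against WT. With 1 library for each genotype there is no replicate check and no test, genotype and library cannot be told apart, and the ranges in brackets are 95% intervals that cover counting error only. *Tspan12* itself (ENSMUSG00000029669) was at 95.7, 85.4 and 40.2 CPM in ECs, so its transcript was still counted in ECs of the library labelled *Tspan12* KO. *Ctnnb1* (ENSMUSG00000006932) was at 524, 612 and 444 CPM in ECs. A 3' count need not see either deletion, and these values do not check the labels. Scaling by trimmed means moved every EC log2 ratio of the *Ctnnb1* cKO library up by 0.14 and those of the *Tspan12* KO library by less than 0.1.

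*Vegfa* (ENSMUSG00000023951) was highest in astrocytes. WT astrocytes held 567 CPM (460.0 to 690.5, 98 UMIs in 21 cells), those of *Tspan12* KO 535 CPM (478 to 597, 320 UMIs in 48 cells) and those of *Ctnnb1* cKO 899 CPM (633 to 1238, 37 UMIs in 19 cells). In each library this was above all 8 main classes, with intervals that did not overlap. For *Tspan12* KO the astrocyte log2 ratio was −0.08 (−0.41 to 0.26), and for *Ctnnb1* cKO it was 0.67 (0.08 to 1.22). All 4 alternatives turned the sign of the first, to between 0.029 and 0.29. The *Ctnnb1* cKO value rested on 19 shallow cells with a median of 1615 UMIs, against 6783 in WT, and when each library was clustered alone it was 0.46. With every cell thinned to 2000 UMIs, a *Vegfa* UMI was found in 60.0% of 20 WT astrocytes, in 65.2% of 46 from *Tspan12* KO and in 85.7% of 7 from *Ctnnb1* cKO (1, 2 and 12 shallower cells left out). Unthinned, the shares were 100%, 89.6% and 63.2%. In ECs, the class read as background, the thinned shares were 0.960%, 2.30% and 0.477%.

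Müller glia, the radial glia that span the retina, were next, in WT with 82.4 CPM (75.3 to 89.99, 496 UMIs), in *Tspan12* KO with 119 CPM (108 to 131, 450 UMIs), and level with other classes in *Ctnnb1* cKO with 93.0 CPM (62.3 to 134, 29 UMIs). Their log2 ratio of 0.53 (0.34 to 0.72) for *Tspan12* KO was under 2-fold, and that for *Ctnnb1* cKO, 0.18 (−0.42 to 0.72), had an interval that included 0. Without doublet removal the first value was 0.21. For the second, clustering each library alone gave −0.68. Retinal progenitors were at 59.2, 84.4 and 53.2 CPM, and their log2 ratio in *Tspan12* KO was 0.51 (0.14 to 0.88). Neurogenic precursors were at 49.2, 63.1 and 95.3 CPM, the last from 16 UMIs.

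In differentiated neurons *Vegfa* stayed within a narrow range. Bipolar cells held 57.6, 63.2 and 52.5 CPM, amacrine cells 56.9, 60.3 and 69.0 CPM, and rods 39.3, 35.6 and 35.9 CPM. None of the 6 log2 ratios of these neurons had an interval that left out 0. Microglia (6.42, 8.51 and 5.23 CPM) and ECs (3.66, 3.53 and 1.71 CPM) were the lowest of the main classes in every library. The EC value in *Ctnnb1* cKO, from 22 UMIs against 59 in WT, gave a log2 ratio of −1.10 (−1.88 to −0.37). It was the single member past 2-fold in ECs of that library, where 21.5% of 13242 genes were past 2-fold, and it ran over its alternatives from −2.09 without cells called cycling to −0.55 without doublet removal, with −0.95 for trimmed means.

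A list of 18 genes bearing on the control of *Vegfa* by hypoxia was read beside it. In Müller glia of *Tspan12* KO, 16 were measured, with a median log2 ratio of 0.19 against 0.02 over all genes, and 1 was past 2-fold upward (*Ddit4*, a stress-induced inhibitor of mTOR, at 1.04) against a background over all genes of 3.14%, of which 2.17% higher and 0.968% lower. The next largest there were *Ndrg1* at 0.66 and *Pdk1*, which restrains pyruvate entry into mitochondria, at 0.64. In *Ctnnb1* cKO Müller glia the median was −0.04 against 0.07 over all genes, with 1 higher and 2 lower past 2-fold, while 15.5% of all genes were past it (8.46% higher and 7.09% lower). This was the one negative median of the list among the classes read. In astrocytes, with 8 of the genes measured, the medians were 0.38 and 0.52, and in rods, microglia, amacrine and bipolar cells they ran from 0.11 to 0.30 for *Tspan12* KO and from 0.14 to 0.42 for *Ctnnb1* cKO.

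*Vegfb* (ENSMUSG00000024962) was present in all 8 main classes. In WT it ran from 16.7 CPM in ECs to 70.7 CPM in progenitors among these, in *Tspan12* KO from 15.8 to 53.4 CPM, and in *Ctnnb1* cKO from 21.0 to 89.96 CPM, each time from ECs to progenitors. Microglia, at 51.8, 50.7 and 58.3 CPM, were second in each library. The EC log2 ratio was −0.08 (−0.43 to 0.25) for *Tspan12* KO, and 0.33 (0.08 to 0.57) for *Ctnnb1* cKO.

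*Vegfc* (ENSMUSG00000031520) was the one ligand whose highest level among the main classes was in ECs. There WT held 53.3 CPM (49.8 to 57.0, 860 UMIs), *Tspan12* KO 40.0 CPM (35.3 to 45.2, 261 UMIs) and *Ctnnb1* cKO 32.5 CPM (29.4 to 35.7, 418 UMIs). WT lay apart from both, the intervals of the mutants overlapped, and both mutants were below the shared WT library. The log2 ratios were −0.41 (−0.62 to −0.21) and −0.72 (−0.89 to −0.55), short of 2-fold. In *Ctnnb1* cKO the value depended on the cells compared. Without cells called cycling, a call of at least 3 UMIs of cell-cycle genes that follows depth, it was −1.62, past 2-fold. In the called cells alone it was −1.20 (−1.53 to −0.89), so both parts were further from 0 than the pooled value. It was 1.54 in the 26 ECs left after removing subclusters mostly of 1 library. Among the main classes amacrine cells came next in WT and *Tspan12* KO, at 15.1 and 15.4 CPM, and held 3.57 CPM in *Ctnnb1* cKO, from 3 UMIs. Astrocytes, too few for a main class, held 17.35, 30.1 and 72.9 CPM, from 3, 18 and 3 UMIs. In each library their interval overlapped that of ECs. Rods were at 1.22, 2.04 and 2.16 CPM.

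*Pgf* (ENSMUSG00000004791) was the sparsest ligand. ECs held 1.92, 1.07 and 3.11 CPM from 31, 7 and 40 UMIs, and no main class exceeded 7.58 CPM in WT. It was highest in a cluster of 15, 59 and 84 cells led by the mural genes *Rgs5*, *Higd1b* and *Pdgfrb*, where it reached 16.7, 20.4 and 30.6 CPM from 10, 25 and 14 UMIs. That cluster was left unnamed because it also held EC markers, and *Flt1* was at 1229, 723 and 838 CPM in it. The plot of ligands by class shows *Vegfa* spread over neurons and glia with a peak in astrocytes. *Vegfc* was highest in ECs among the main classes, with wide astrocyte intervals that overlapped those of ECs.

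**Figure D1:**
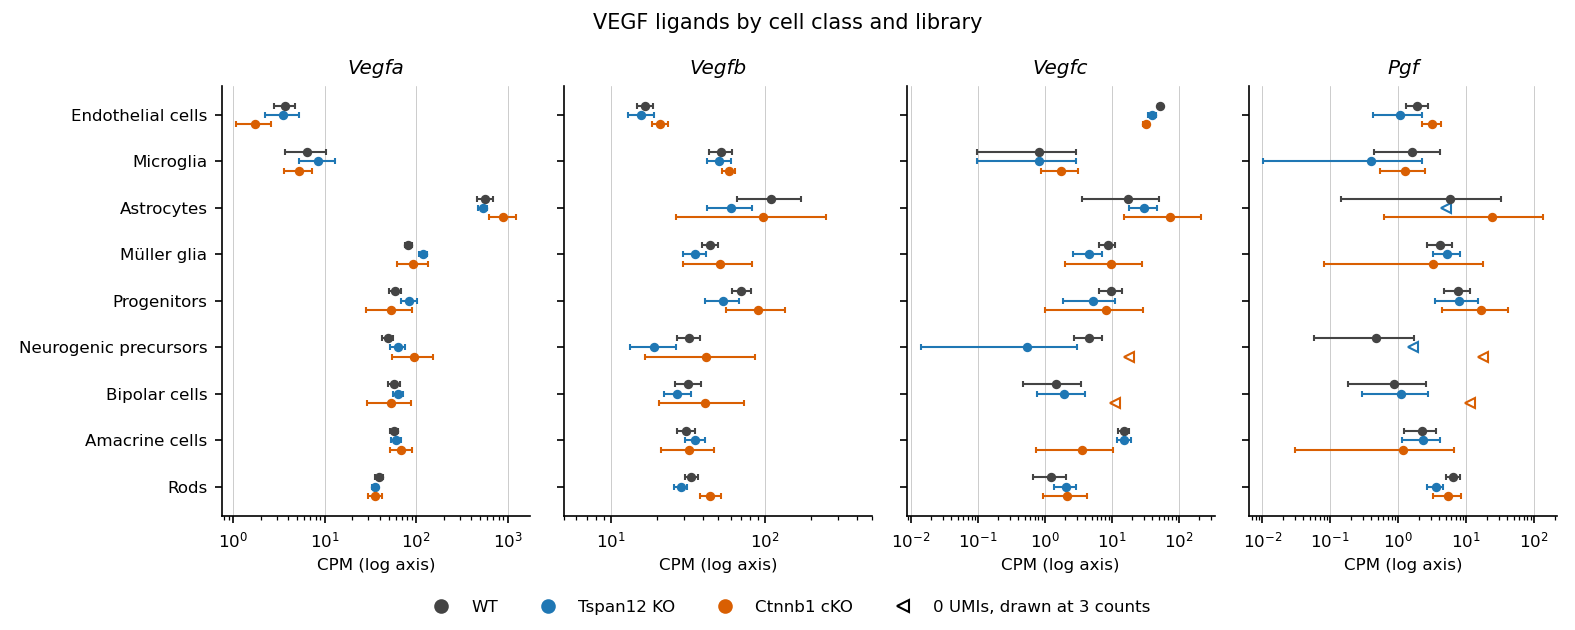
Level of the 4 ligands in 9 cell classes, in CPM on a log axis, with points for the 3 libraries and bars for the 95% Poisson interval; open triangles mark classes with 0 UMIs, drawn at 3 counts. *Vegfa* peaks in astrocytes in all 3 libraries (567, 535 and 899 CPM), and *Vegfc* is highest in ECs in WT and *Tspan12* KO.

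Among the receptors, *Kdr* (ENSMUSG00000062960) was not restricted to ECs. WT ECs held 598 CPM (586 to 610, 9637 UMIs) and WT Müller glia 598 CPM (579 to 618, 3601 UMIs), and the intervals overlapped almost entirely. ECs of *Tspan12* KO were at 770.4 CPM (749 to 792, 5024 UMIs) and Müller glia at 585 CPM (561 to 610). ECs of *Ctnnb1* cKO were at 550.3 CPM (538 to 563, 7083 UMIs) and Müller glia at 587 CPM (505 to 679). Progenitors followed at 357, 419 and 307 CPM and neurogenic precursors at 156, 176 and 167 CPM, each class with an interval wholly under that of the class before it in all 3 libraries. Amacrine cells, bipolar cells, rods and microglia lay between 15.2 and 67.8 CPM in all 3 libraries.

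The 8 EC markers did not share this level in Müller glia, but clusters were named from these markers. Müller glia held *Kdr* at 100.1%, 75.9% and 107% of the EC level of the same library. The 8 EC markers summed to 2.37%, 1.14% and 3.47% of theirs, and *Nrp1* was at 82.5%, 71.0% and 76.2%. After thinning, 64.4%, 66.0% and 58.2% of Müller glia held a *Kdr* UMI, beside 67.2%, 72.8% and 59.8% of ECs and 4.93%, 5.30% and 9.27% of rods, the class read as background. Median depths were 5840, 3433 and 2574 UMIs in Müller glia and 2864, 1645 and 1316 UMIs in rods.

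In ECs *Kdr* was 0.37 higher on the log2 scale in *Tspan12* KO (0.32 to 0.42) and −0.12 (−0.16 to −0.07) in *Ctnnb1* cKO. The first stayed above 0 in all 7 other ways of choosing or scaling the cells, from 0.18 to 0.36. The second ran from −0.41 to 0.19 and was 0.02 with trimmed-mean scaling, so its sign depended on the choice. ECs called cycling, with at least 3 UMIs of cell-cycle genes, made up 62.0%, 49.3% and 23.3%, and without them the *Kdr* log2 ratios were 0.29 and −0.41. This fixed count follows depth, since called cells had medians of 28330, 31400 and 6546 UMIs and the others 7841, 6043 and 2764, so neither the shares nor any ratio without called cells separates cycling from depth. In progenitors the *Tspan12* KO log2 ratio was 0.23 (0.07 to 0.39) and in Müller glia −0.03 (−0.11 to 0.04). Transcripts of other cells were also unequal among the ECs. The 6 erythrocyte markers summed to 159, 3045 and 247 CPM and the 8 microglia markers to 143, 106 and 602 CPM in ECs; their part in the EC log2 ratios was not tested.

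*Flt1* (ENSMUSG00000029648) was close in level in the pooled ECs of all 3 libraries. WT held 1489 CPM (1470 to 1508, 24009 UMIs), *Tspan12* KO 1394 CPM (1365 to 1423, 9090 UMIs) and *Ctnnb1* cKO 1506 CPM (1485 to 1527, 19386 UMIs). Log2 ratios came to −0.09 (−0.13 to −0.06) and 0.02 (−0.01 to 0.04), and the sizes were small even where the interval left out 0. The *Tspan12* KO value stayed below 0 under the 7 alternatives (−0.30 to −0.11), and that of *Ctnnb1* cKO took either sign (−0.29 to 0.19). Split by the cycling call, which follows depth, the *Ctnnb1* cKO value was −0.22 (−0.26 to −0.175) in called cells and −0.29 in the others. Both were below the pooled value. Called cells made up 62.0% of WT ECs and 23.3% of those of *Ctnnb1* cKO. Thinned shares of ECs with a *Flt1* UMI were 84.5%, 86.2% and 88.1%, against 3.29%, 1.24% and 10.4% of rods.

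Outside ECs, *Flt1* was highest in *Ctnnb1* cKO in each of the 7 other main classes. Over the 7 other main classes it lay between 13.7 and 48.4 CPM in WT, between 5.27 and 58.0 CPM for *Tspan12* KO, and between 58.8 and 123 CPM for *Ctnnb1* cKO. In rods it was at 16.2, 7.49 and 61.2 CPM, a log2 ratio of −1.11 (−1.46 to −0.77) and 1.92 (1.63 to 2.20), against a background of 2.51% and 24.7% of genes past 2-fold. The 8 EC markers were also highest in *Ctnnb1* cKO in each of these classes. As a share of their EC level they ranged over the same classes from 1.64 to 2.37% in WT, from 0.869 to 1.47% for *Tspan12* KO, and from 3.47 to 5.84% for *Ctnnb1* cKO. The medians of *Flt1* were 1.09%, 0.537% and 4.75%, and whether these counts come from the cells themselves was not tested. Müller glia stood above the EC markers in all 3 libraries, with *Flt1* at 3.25%, 4.16% and 6.18% of the EC level against 2.37%, 1.14% and 3.47%. So did progenitors of *Ctnnb1* cKO, at 8.15% against 5.84%. Its amacrine cells (5.14% against 5.05%) and neurogenic precursors (4.75% against 4.60%) were slightly above the markers. Without doublet removal the log2 ratio of *Flt1* in *Tspan12* KO Müller glia was −0.60, against 0.26 with it.

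**Figure D2:**
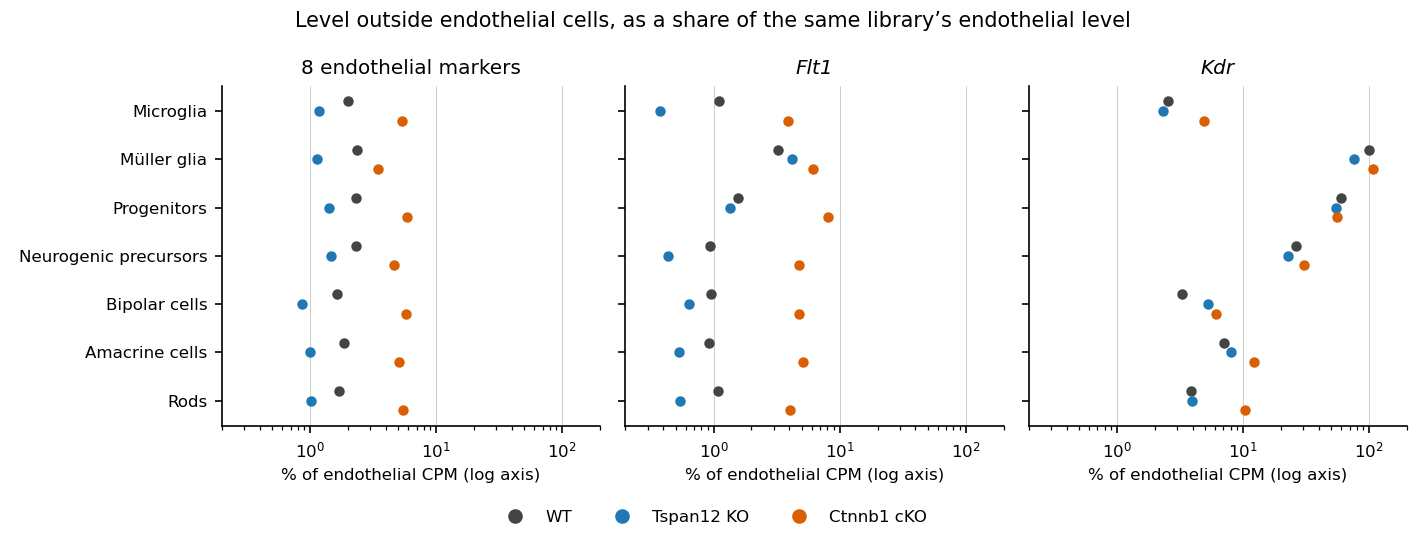
Level in 7 classes other than ECs as a percent of the EC level of the same library, on log axes, for the summed 8 EC markers, *Flt1* and *Kdr*, with 1 point per library. The markers and *Flt1* are highest in *Ctnnb1* cKO in all 7 classes, while *Kdr* reaches 75.9 to 107% in Müller glia. In Müller glia *Flt1* is higher in *Tspan12* KO than in WT, unlike the markers.

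*Flt4* (ENSMUSG00000020357) was found in ECs at 69.1 CPM (65.1 to 73.3, 1114 UMIs), 70.5 CPM (64.2 to 77.3, 460 UMIs) and 72.5 CPM (67.9 to 77.3, 933 UMIs), with overlapping intervals. The log2 ratios were 0.03 (−0.13 to 0.19) and 0.07 (−0.06 to 0.20). Outside ECs no main class held more than 2.17 CPM in WT or 1.69 CPM in *Tspan12* KO. In *Ctnnb1* cKO bipolar cells held 18.8 CPM, from 5 UMIs. Thinned shares of ECs with a UMI were 14.2%, 9.58% and 12.3%, against 0.316%, 0.0654% and 0.579% of rods.

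The coreceptor *Nrp1* (ENSMUSG00000025810) was shared widely. WT ECs held 222 CPM (215 to 229, 3577 UMIs), those of *Tspan12* KO 225 CPM (214 to 237, 1469 UMIs) and those of *Ctnnb1* cKO 303 CPM (294 to 313, 3900 UMIs), so that *Ctnnb1* cKO alone was separate. Its log2 ratio was 0.45 (0.38 to 0.52), against 0.02 (−0.07 to 0.11) in *Tspan12* KO. The *Ctnnb1* cKO value was above 0 under all 7 alternatives, from 0.16 without cells called cycling to 0.99 in the 26 ECs outside subclusters mostly of 1 library, and it was 0.59 with trimmed-mean scaling. Split by the cycling call, which follows depth, it was 0.31 (0.22 to 0.40) in called cells and 0.16 (0.03 to 0.29) in the others. Both were below the pooled value. Thinned shares of ECs with a UMI were 34.0%, 36.0% and 41.5%, beside 10.3%, 9.62% and 8.11% of rods. Macrophage-like cells stood above every main class, at 594 CPM in 22 *Tspan12* KO cells and 538 CPM in 305 *Ctnnb1* cKO cells. WT had 2 such cells.

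Microglia held *Nrp1* at 109 CPM (96.2 to 122, 271 UMIs), 141 CPM (127 to 157, 348 UMIs) and 178 CPM (167 to 188, 1121 UMIs), with the 3 intervals apart. Neither log2 ratio, 0.38 (0.14 to 0.61) and 0.71 (0.51 to 0.90), was past 2-fold. In rods both were negative, at −0.46 (−0.61 to −0.31) and −0.54 (−0.80 to −0.30), so the sign differed between these classes. In *Ctnnb1* cKO both classes came largely from clusters with few WT cells. Müller glia were at 183, 160 and 231 CPM and amacrine cells at 109, 68.5 and 90.4 CPM.

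*Nrp2* (ENSMUSG00000025969), whose promoter window holds the TCF/LEF core shown above, was divided sharply between classes. Amacrine cells (117, 112 and 84.5 CPM), ECs (112.5, 98.8 and 97.0 CPM) and microglia (97.1, 113 and 95.5 CPM) had neighbouring levels, with overlapping intervals in each library. The other 5 main classes ranged from 2.17 to 4.68 CPM in WT, from 2.38 to 7.87 CPM for *Tspan12* KO, and from 7.50 to 20.4 CPM for *Ctnnb1* cKO. The EC log2 ratios were −0.19 (−0.32 to −0.06) and −0.21 (−0.32 to −0.11). Both were measured against the same WT library. The *Tspan12* KO value was below 0 under all 7 alternatives (−0.46 to −0.07), and the *Ctnnb1* cKO value under all but 1 (−0.58 to 0.01), at −0.07 with trimmed-mean scaling. Thinned shares of ECs with a UMI were 19.2%, 16.5% and 16.3%, against 0.759%, 0.327% and 0.772% of rods.

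**Figure D3:**
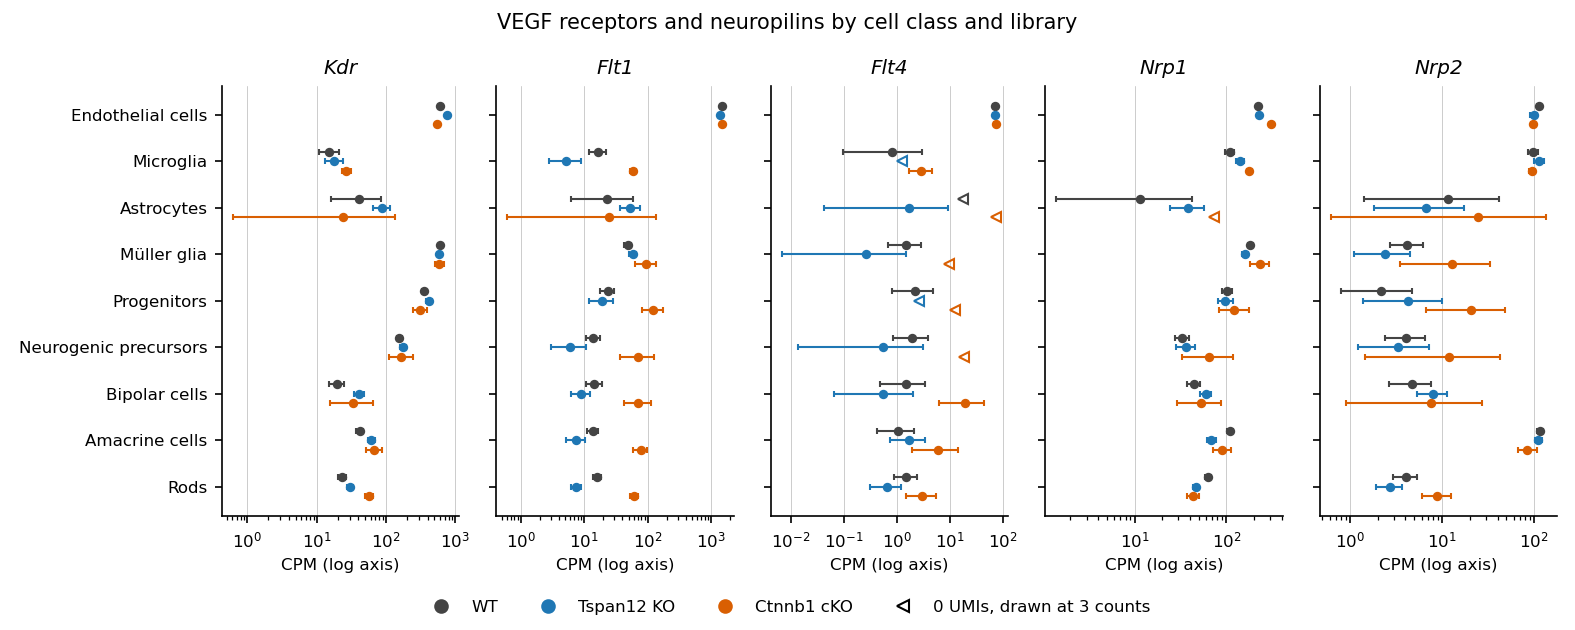
Level of the 3 VEGF receptors and 2 neuropilins in 9 cell classes, in CPM on log axes, with 1 point per library, bars for the 95% Poisson interval and open triangles for 0 UMIs drawn at 3 counts. *Kdr* is as high in Müller glia as in ECs in WT (598 CPM each), and *Nrp2* is high in ECs, microglia and amacrine cells alone among these classes.

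The 9 genes were then placed among all genes measured in ECs. In *Tspan12* KO ECs 7.81% of 13242 genes were past 2-fold (2.82% higher and 4.98% lower), and 0 of the 9 were. In *Ctnnb1* cKO ECs 21.5% were (8.48% higher and 13% lower), and 1 of the 9, *Vegfa*, was among them. Both counts are near the background share and say nothing particular of the set. The median over all genes was 0.01 and −0.13. The members were spread over the order of these genes. In *Tspan12* KO they ran from *Pgf* (7 UMIs in that library), which stood above 6.62% of genes, and *Vegfc*, above 17.4%, to *Kdr*, above 79.9%. In *Ctnnb1* cKO they ran from *Vegfa*, above 10.8%, and *Vegfc*, above 21.3%, to *Nrp1*, above 78.6%, and *Pgf*, above 86.1%.

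**Figure D4:**
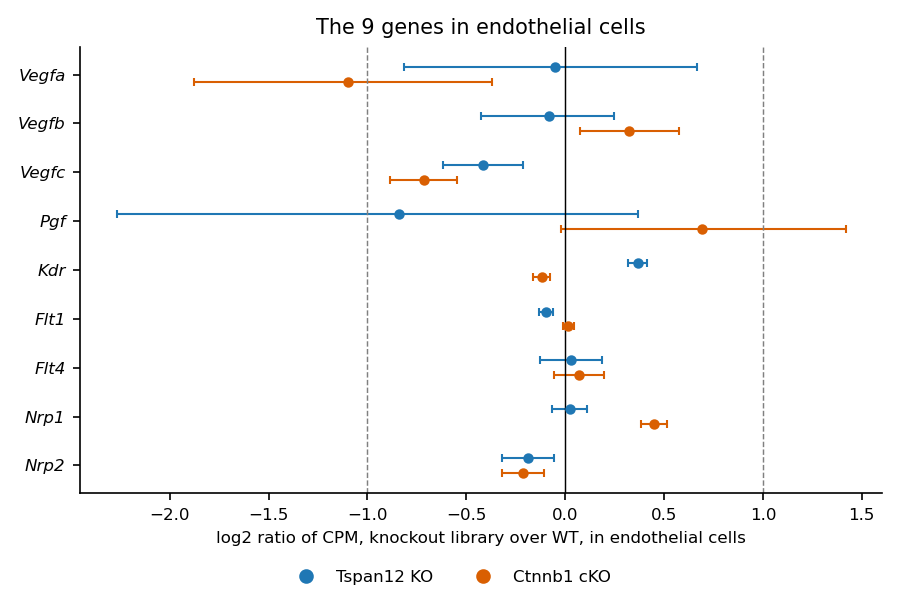
Log2 ratio of CPM in ECs, mutant library over WT, for the 9 genes, with bars for the 95% interval of counting error and dashed lines at 2-fold. The 5 receptors and coreceptors lie between −0.21 and 0.45, inside the dashed lines, and *Vegfa* of *Ctnnb1* cKO is the single point beyond them.

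The levels of receptors within ECs were examined next. When all ECs were clustered together, subclusters separated by library, and 26 of 2710 *Ctnnb1* cKO ECs lay in subclusters not mostly of 1 library, so subtypes could not be compared that way. Within the joint clusters WT and *Tspan12* KO shared a capillary-like subcluster (309 and 80 cells) and a proliferative-like one (167 and 95 cells). *Kdr* was at 712 CPM in WT and 925 CPM in *Tspan12* KO in the former, and at 511 and 731 CPM in the latter, so it was higher in *Tspan12* KO in both. *Flt1* was at 2033 and 1710 CPM in the former and at 1068 and 1083 CPM in the latter. The ECs of each library were then clustered on their own, a step added after the data were seen.

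Proliferative-like ECs, named from cell-cycle markers, held *Flt1* at 1059 CPM in WT (143 cells), 1058 CPM in *Tspan12* KO (87 cells) and 1089 CPM in *Ctnnb1* cKO (320 cells), and *Kdr* at 516, 712 and 535 CPM. A second WT subcluster of that name, of 58 cells at a median of 5950 UMIs, was lower, at 361 CPM for *Flt1* and 309 CPM for *Kdr*. Arterial-like ECs held *Flt1* at 2214 CPM in WT (46 cells), 1440.0 CPM in *Tspan12* KO (57 cells) and 2808 and 1420.0 CPM in the pair of *Ctnnb1* cKO subclusters (289 and 59 cells). *Kdr* was at 1048 CPM in WT and 974 CPM in *Tspan12* KO arterial-like cells, and at 656 and 276 CPM in those of *Ctnnb1* cKO. *Nrp2* was at 50.6, 83.3, 31.1 and 21.2 CPM in arterial-like cells. In *Ctnnb1* cKO these were its lowest subclusters, while in WT 1 subcluster (41.1 CPM) and in *Tspan12* KO 2 subclusters (79.6 and 30.2 CPM) were lower. *Vegfc* was at 446, 120, 243 and 184 CPM in arterial-like cells, the highest levels of each library, and all other subclusters of at least 20 cells held 1.93 to 47.0 CPM. By number of UMIs, though, the arterial-like cells of *Tspan12* KO held 89 and its proliferative-like cells 100.

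Tip-like ECs, which lead sprouts, were named in 2 libraries. They held *Nrp1* at 402 CPM in WT (20 cells) and 452 CPM in *Tspan12* KO (42 cells), above the larger proliferative-like subclusters at 174 and 216 CPM, and an unnamed WT subcluster of 93 cells, led by *Apod* and *Cacna1e*, was at 463 CPM. *Flt4* was at 91.1 and 114 CPM in the tip-like cells, *Kdr* at 514 and 967 CPM, and *Flt1* at 1193 and 2125 CPM. That unnamed WT subcluster was above the WT tip-like cells in each, at 125, 914 and 2330 CPM, with overlapping intervals for *Flt4*. *Pgf* was at 22.0 CPM in the WT tip-like cells, from 21 UMIs, against 0.681 CPM in the larger WT proliferative-like subcluster. In *Ctnnb1* cKO no subcluster met the naming rule for tip-like cells. A subcluster of 665 cells there, led by *Apod*, *Dach1* and *Cdh13*, held *Nrp1* at 413 CPM and *Nrp2* at 131 CPM, and 289 venous-like cells held *Nrp1* at 149 CPM and *Kdr* at 348 CPM. Since subclusters were defined on these same cells, the differences between them are a description.

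**Figure D5:**
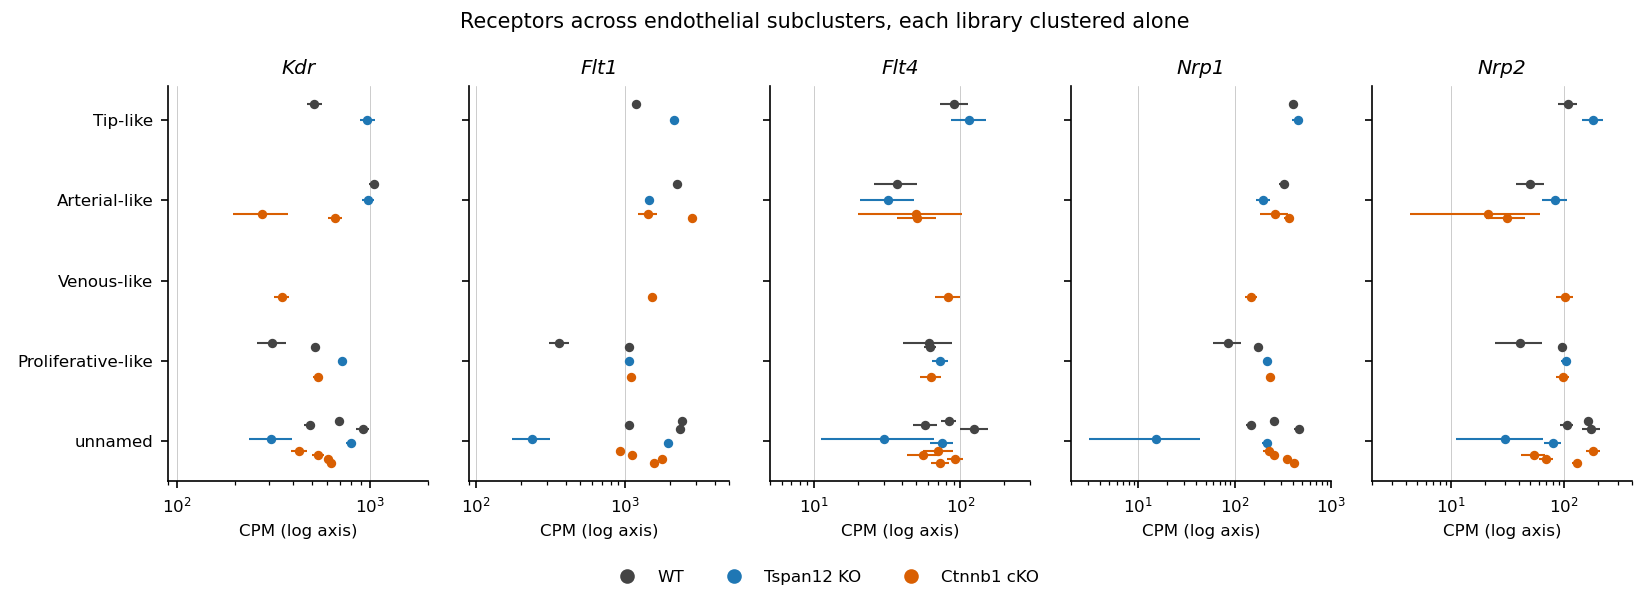
Level of the 5 receptors and coreceptors in EC subclusters of at least 20 cells, each library clustered alone, in CPM on log axes, with bars for the 95% Poisson interval and 1 point per subcluster. *Kdr* of *Tspan12* KO proliferative-like cells (712 CPM) lies to the right of the WT (516 CPM) and *Ctnnb1* cKO (535 CPM) points.

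Genes around the receptors were counted in ECs by list. Of 50 names of VEGF receptor signalling 47 were measured. In *Tspan12* KO 0 were past 2-fold (7.81% of all genes were) and the median log2 ratio was 0.06, with *Cdh5* (VE-cadherin, an adhesion partner of VEGFR2) at 0.66 and the small GTPase *Rac1* at 0.62 at the top, and the endocytic adaptor *Dab2* at −0.75 and *Nos3* (endothelial nitric oxide synthase) at −0.50 at the bottom. In *Ctnnb1* cKO 0 were higher and 3 lower past 2-fold, where 21.5% of all genes were past it, and the median of −0.17 was near the −0.13 of all genes. The 3 were *Ppp3cb*, a catalytic subunit of calcineurin, at −1.35, *Dab2* at −1.34 and *Gipc1*, an adaptor that binds neuropilin-1, at −1.24. *Ptprj* at 0.79 and *Plcg1*, the phospholipase recruited by VEGFR2, at 0.71 were the largest on the other side.

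All 20 genes of a list of VEGF-induced EC genes were measured. In *Tspan12* KO 1 was higher and 5 were lower past 2-fold, with a median of −0.06, beside 2.82% of all EC genes higher and 4.98% lower and a median of 0.01. The higher gene was the chemokine receptor *Cxcr4*, at 1.07. The lowest were the immediate-early factors *Egr3*, at −2.59 (37.8 CPM in WT and 6.29 CPM in *Tspan12* KO), and *Nr4a2*, at −2.01 (142 and 35.1 CPM), followed by the protease *Adamts1* at −1.32, the phosphatase *Dusp5* at −1.30 and *Nr4a1* at −1.18. In *Ctnnb1* cKO 5 were higher and 2 lower, beside 8.48% of all genes higher and 13% lower, and the list's median of −0.15 was near that of all genes, −0.13. *Igfbp3*, which binds insulin-like growth factors, was at 1.70 (284 CPM in WT and 927 CPM in *Ctnnb1* cKO), *Pdgfb*, the ligand that recruits pericytes and the source of the promoter in the Cre driver, at 1.18, and the calcineurin inhibitor *Rcan1* at 1.06. The 2 lower genes were again *Egr3*, at −2.62, and *Nr4a2*, at −1.48, both set against the same WT library. When each library was clustered alone, a WT subcluster of 88 cells with a median of 34840 UMIs had *Egr3* among its leading genes. No mutant subcluster did, and the part of these cells in the log2 ratios was not tested.

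Of 13 neuropilin partners, the class 3 semaphorins, their plexins and *L1cam*, 8 were measured. In *Tspan12* KO 0 were past 2-fold (7.81% of all genes), the median was 0.39, and *Sema3f*, a ligand of neuropilin-2, was the largest at 0.86. In *Ctnnb1* cKO, where 8.48% of all genes were higher and 13% lower, 3 were higher, *Sema3g* at 1.46, *Sema3f* at 1.34 and *Plxna1* at 1.06. Another 2 were lower, *Sema3a* at −1.29 and *Sema3c* at −1.22, from low levels of 3.22 and 4.71 CPM in WT. The median of the 8 was 0.44. Of the hypoxia list, 17 of 18 genes were measured in ECs, with 1 lower in *Tspan12* KO (*Adm*, adrenomedullin, at −1.43) and a median of 0.32. In *Ctnnb1* cKO, against the same background, 2 were higher (*Ddit4* at 2.47 and *Bnip3* at 1.28) and 1 lower (*Egln1*, a prolyl hydroxylase that marks HIF for destruction, at −1.51), with a median of 0.10. These shifts were not particular to ECs. In Müller glia, microglia, rods, amacrine and bipolar cells of that library, *Ddit4* was at 1.62, 2.36, 1.54, 1.46 and 1.94. In the same order *Bnip3* was at 0.73, 0.55, 1.41, 0.58 and 1.08, and *Egln1* at −1.005, −0.73, −0.88, −0.95 and −1.27. In astrocytes *Egln1* was at 69.4 CPM in WT and 48.6 CPM in *Ctnnb1* cKO, the latter under the floor of 3 counts, so its direction is not read. Of 6 other names bearing on the family 3 were measured, and *Adamts3*, a protease that matures VEGF-C, was at 1.95 in *Tspan12* KO, from 16 UMIs in WT.

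To place the members among all genes, patterns were compared over 30 pairs of class and library with at least 50 cells. These points share libraries, depth and free RNA, and the correlations are given as descriptions, on log2(CPM + 5), among 13976 genes. *Vegfa* was most like *Ank3* (Pearson r of 0.967), *Ddr1* (0.964) and *Ephb2* (0.958). The genes nearest *Kdr* were *Itga2* (0.953), *Nrarp* (0.941) and *Tanc1* (0.941). For *Flt1* they were *Col4a1* (0.957), *Adgrf5* (0.952) and *Epas1* (0.947), and for *Flt4* they were *Fgd5* (0.965), *Pcdh12* (0.939) and *B3gnt3* (0.936). The neuropilins had weaker matches, with *Fosl2* (0.850), *Arid5a* (0.840) and *Layn* (0.837) nearest *Nrp1*, and *Rgs7bp* (0.893), *Nav3* (0.855) and *Pde4a* (0.855) nearest *Nrp2*.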

How the data were processed

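The deposited matrices hold raw UMI counts per gene and barcode, made by the authors with Cell Ranger from Chromium 3' libraries. The matrix headers give version 8.0.1 and the methods another, and the labels name GRCm39 while the methods name an older build. So no coordinates are given for counts, and promoter windows come from RefSeq in GRCm38.p6. Barcodes needed 250 genes, 500 UMIs and a mitochondrial share of 15% or less. The top Scrublet scores were removed at 0.8% per 1000 cells. With the 9 genes left out, 2000 variable genes and 30 principal components were clustered (scanpy 1.11.5, leidenalg 0.10.2, resolution 1) and named from markers, a name meaning cells like that class. Unnamed clusters held 30.7%, 34.3% and 13.2% of cells. UMIs were summed per class and library. A gene was measured with at least 50 UMIs over the 3 libraries in the class and called past 2-fold at a log2 ratio of at least 1 either way. For these calls and for the medians of lists, a count under 3 was set to 3. Intervals were exact Poisson, conditional binomial and Clopper-Pearson. For the EC comparisons they were run on counts simulated from the Poisson model they assume, which says nothing of variation between cells or libraries. Cells were thinned to 2000 UMIs for shares. Alternatives were trimmed means (edgeR 4.0.16 in R 4.3.3), no doublet removal, means over cells, each library clustered alone, a marker gate, ECs without subclusters over 90% of 1 library, and ECs without cells called cycling (at least 3 UMIs of 12 genes, unthinned).

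Named were the 9 genes, the 3 largest rises and falls of each list, and the 3 genes most like a member. *Dusp5* and *Nr4a1* were added after their values were seen, to complete a count of 5. EC subclusters of each library alone, and the EC choices for *Vegfa* and *Vegfc* beyond trimmed means and doublets, were also chosen after seeing the data. The members, lists and rules were chosen with earlier results of these data known.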

Additional observations from a re-analysis of the deposited data

Results flagged for a closer look

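In 8 cases the log2 ratio of a gene in another class had the opposite sign to that in ECs, with both counting intervals apart from 0. These differences between classes were not tested. For *Kdr* in *Ctnnb1* cKO, at −0.12 in ECs, the log2 ratio was 1.30 in rods, 0.81 in microglia and 0.69 in amacrine cells, and the EC markers were also higher outside ECs in that library, at 3.47 to 5.84% of the EC level against 1.64 to 2.37% in WT. Their part in these values was not tested. *Nrp2* in *Ctnnb1* cKO, at −0.21 in ECs, was at 3.24 in retinal progenitors (5 UMIs against 6 in WT, from fewer cells) and at 1.15 in rods. *Nrp1* in *Ctnnb1* cKO, at 0.45 in ECs, was at −0.54 in rods. *Vegfa* in *Ctnnb1* cKO, at −1.10 in ECs, was at 0.95 in neurogenic precursors, from 16 UMIs. *Flt1* in *Tspan12* KO, at −0.09 in ECs, was at 0.26 in Müller glia and at −0.60 there without doublet removal.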

How the results depend on the processing

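No paired analysis was possible because each genotype has 1 library. The values below are EC log2 ratios that left the interval of the main value, and the cause was not tested. In *Tspan12* KO, *Kdr* was 0.30 without doublet removal, 0.29 without cells called cycling and 0.18 as a mean over cells. *Flt1* was −0.20 without doublet removal, −0.15 with each library clustered alone, −0.14 with the marker gate and −0.30 without subclusters mostly of 1 library. Without cells called cycling *Flt4* was −0.40, *Nrp1* −0.11 and *Nrp2* −0.46, and as a mean over cells *Flt4* was −0.41. In *Ctnnb1* cKO, trimmed means gave 0.024 for *Kdr*, 0.16 for *Flt1*, 0.21 for *Flt4*, 0.59 for *Nrp1* and −0.071 for *Nrp2*. Without subclusters mostly of 1 library, which left 26 cells, they were 0.19, −0.15, 0.27, 0.99 and 0.011. Without cells called cycling *Kdr* was −0.41, *Flt1* −0.29, *Nrp1* 0.16 and *Nrp2* −0.58. As a mean over cells *Kdr* was −0.31, *Flt1* 0.19, *Flt4* −0.12 and *Nrp2* −0.11. *Flt1* was also −0.020 without doublet removal and 0.094 with each library clustered alone. *Vegfa* in *Tspan12* KO astrocytes turned sign under all 4 alternatives (0.029 to 0.29, the highest as a mean over cells), and it was 0.21 in Müller glia without doublet removal, and in *Ctnnb1* cKO Müller glia −0.68 with each library clustered alone. For *Flt4* in neurogenic precursors of *Tspan12* KO, with 1 UMI, the sign turned to 0.93 without doublet removal. Of the other class and gene pairs, trimmed means left 122 of 122 within the main interval and no doublet removal 105.

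Genes past 2-fold in ECs numbered 1034 and 2842 in *Tspan12* KO and *Ctnnb1* cKO, 2104 and 4698 at a minimum of 10 UMIs and 452 and 1713 at 200 UMIs. Of the *Ctnnb1* cKO calls 39.5% were higher, and 51.3% with trimmed means.

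Shares of ECs with a UMI follow depth. Without thinning they were 96.1%, 91.0% and 73.2% for *Kdr*, 97.0%, 89.7% and 93.3% for *Flt1*, 64.6%, 57.6% and 24.9% for *Flt4*, 83.5%, 74.8% and 59.4% for *Nrp1* and 67.3%, 62.1% and 29.0% for *Nrp2*. At 1000 UMIs they were 44.7%, 48.9% and 41.4% for *Kdr*, 70.3%, 68.0% and 73.5% for *Flt1*, 8.14% and 6.58% for *Flt4* in WT and *Ctnnb1* cKO, 22.0%, 21.2% and 27.5% for *Nrp1* and 9.09%, 11.5% and 8.77% for *Nrp2*. The order of libraries differed between unthinned and thinned shares for each of the 5 genes, for *Nrp2* at 1000 UMIs. Depth limits *Pgf* everywhere, astrocytes, and all *Ctnnb1* cKO neurons, whose classes held few UMIs of these genes.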
